A study of Homo sapiens with 8 samples.

Results

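The peaks described here lie where listed peaks assigned to a pair of genes on opposite DNA strands cover the same genomic bases. Whether both genes are transcribed over these bases was not tested. A peak is a stretch of RNA enriched by an antibody against N6-methyladenosine (m6A), and it was taken where its exon blocks shared at least 1 base with the blocks of another peak on the same chromosome, on the opposite strand and assigned to another gene. Of the 22626 peaks that the authors' deposited table lists, 1222 met this rule, after 1449 peaks without a gene name had been left out as members and as partners. They formed 640 overlapping pairs in 584 separate loci and belonged to 1027 genes in 524 gene combinations. Of the loci, 536 held exactly 1 pair, 48 held more, and the largest held 4 peaks. The choice used coordinates, strand and gene identity only, and no measured level.

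The peaks come from HCT116 cells, a human colorectal cancer line, with a stable knockdown of ALKBH5 by a short hairpin RNA (shALKBH5, hairpin AL1) or with a non-targeting hairpin (shNC, labelled as wild type). Purified poly(A) RNA was fragmented, and immunoprecipitated (IP) and input libraries were made from each arm, so the groups are shALKBH5 IP, shALKBH5 input, shNC IP and shNC input with 2 libraries each, 8 in all. A single hairpin defines the knockdown arm, and the labels do not say whether the replicates were separate cultures, so spread between them may be technical. The study asked how loss of ALKBH5, an enzyme that removes m6A from RNA, altered the distribution of the mark. The values are 1 enrichment, 1 peak p and 1 log2 fold between the arms for each peak, so no depth, no spread between replicates and no ALKBH5 transcript level stands behind them here, and values per library were not analysed here. Which arm is the numerator of the log2 fold, whether it allows for transcript level, and whether reads were counted by strand are not given in the sources used here, and folds are therefore called positive or negative only. Where strand is not used, reads from a gene and from its antisense partner cannot be told apart. Of 10 colorectal epithelial markers, 6 had a peak (CDH1, CDX2, CLDN4, EPCAM, KRT8 and KRT18), against 1 of 4 leukocyte markers (CD68), 1 of 4 fibroblast markers (COL1A1) and 0 of 2 endothelial markers, and a marker without a peak is not shown to be unexpressed.

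As background, m6A is deposited on adenosines in nuclear RNA by a methyltransferase complex, preferentially within short motifs with the core GGAC, and is densest around stop codons and in long internal exons. Many human genes overlap a gene on the other strand. Convergent neighbours share their 3′ ends (tail to tail), divergent neighbours share their 5′ ends (head to head), and other genes lie wholly within a neighbour (nested). Natural antisense transcripts, many of them long non-coding RNAs, can pair with the sense RNA and affect its splicing, stability or translation, and in a library that does not keep the strand the fragments of both RNAs map to the same place.

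The bases that a pair shares can be read directly where they reach a transcription start. The following RefSeq sequences (GRCh38.p14) run from 250 bases before to 50 bases after the annotated start of a gene, are written 5′ to 3′ on that gene's strand, and carry in capitals the bases covered by the peaks of both genes. They are shown because the same letters, or their reverse complement, lie inside a listed peak of each strand. The GEMIN7-AS1 window lies at chr19:45090342-45090641 on the minus strand and is covered in full by the peaks of GEMIN7-AS1 and GEMIN7. The centre of the peak assigned to GEMIN7-AS1 lay 113 bases before the annotated start of GEMIN7-AS1. The SUPT4H1 window lies at chr17:58352152-58352451 on the minus strand and shares 126 bases with the peak of TSPOAP1-AS1. The LAMTOR5-AS1 window, at chr1:110407559-110407858 on the plus strand, holds 235 of the 240 bases that the peaks of LAMTOR5-AS1 and LAMTOR5 share. The window of the histone gene H2AC15, at chr6:27838326-27838625 on the minus strand, holds 50 of the 167 bases that the peaks of H2AC15 and H2BC15 share.
GEMIN7-AS1: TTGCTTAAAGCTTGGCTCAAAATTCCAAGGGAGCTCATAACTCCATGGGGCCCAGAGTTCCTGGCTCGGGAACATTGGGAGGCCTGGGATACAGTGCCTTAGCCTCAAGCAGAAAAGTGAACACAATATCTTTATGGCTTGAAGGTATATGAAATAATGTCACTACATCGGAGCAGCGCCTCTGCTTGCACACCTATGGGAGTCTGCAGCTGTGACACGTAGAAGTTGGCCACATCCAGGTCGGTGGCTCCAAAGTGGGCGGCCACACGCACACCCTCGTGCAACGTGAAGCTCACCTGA
SUPT4H1: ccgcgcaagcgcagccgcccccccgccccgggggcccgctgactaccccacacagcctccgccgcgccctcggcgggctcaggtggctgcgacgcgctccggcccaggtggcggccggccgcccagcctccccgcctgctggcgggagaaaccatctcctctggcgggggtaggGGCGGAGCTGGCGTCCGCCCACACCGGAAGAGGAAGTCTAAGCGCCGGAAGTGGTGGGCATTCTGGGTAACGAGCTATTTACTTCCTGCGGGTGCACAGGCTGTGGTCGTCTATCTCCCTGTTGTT
LAMTOR5-AS1: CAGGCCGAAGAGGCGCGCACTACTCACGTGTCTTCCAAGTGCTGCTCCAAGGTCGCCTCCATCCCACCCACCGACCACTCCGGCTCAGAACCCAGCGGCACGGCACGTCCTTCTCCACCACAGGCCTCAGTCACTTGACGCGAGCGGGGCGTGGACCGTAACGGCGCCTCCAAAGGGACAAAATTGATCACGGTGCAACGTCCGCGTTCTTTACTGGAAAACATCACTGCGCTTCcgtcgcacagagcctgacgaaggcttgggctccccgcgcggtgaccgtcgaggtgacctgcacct
H2AC15: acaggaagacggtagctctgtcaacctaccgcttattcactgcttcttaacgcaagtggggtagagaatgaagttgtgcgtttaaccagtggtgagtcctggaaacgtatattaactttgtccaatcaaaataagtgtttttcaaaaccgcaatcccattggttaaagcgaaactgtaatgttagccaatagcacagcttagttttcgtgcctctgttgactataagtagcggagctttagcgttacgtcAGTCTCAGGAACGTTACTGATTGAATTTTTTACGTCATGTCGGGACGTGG

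A hairpin of a microRNA lay in 1 overlap. The peaks of TECR, an enzyme of very long chain fatty acid synthesis on the plus strand, and DNAJB1, an HSP40 co-chaperone on the minus strand, share 194 bases, and these include 62 of the 98 bases of the MIR639 hairpin at chr19:14529543-14529640. The hairpin is written 5′ to 3′ with the bases common to both peaks in capitals.
MIR639: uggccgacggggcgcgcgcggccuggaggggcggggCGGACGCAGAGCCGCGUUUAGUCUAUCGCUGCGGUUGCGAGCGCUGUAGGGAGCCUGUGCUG

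The shared bases of the 4 promoter windows differ in the m6A core motif GGAC, searched on both strands. The window of GEMIN7-AS1 holds no GGAC on either strand. In the LAMTOR5-AS1 window the shared bases hold 2 GGAC on the gene's strand and 2 on the other, and the shared bases of MIR639 hold 1 on the hairpin's strand. The shared part of the SUPT4H1 window holds 0 on the gene's strand and 1 on the other, and that of H2AC15 holds 1 on the gene's strand and 0 on the other. Among the 72 promoter windows that a member peak of the gene reached, 73.6% held GGAC on the gene's strand and 86.1% on the other strand. The same shares were 73.4% and 74.0% over 715 windows reached by any listed peak of the gene, and 66.3% and 66.1% over all 35116 windows. The median GC content of these sets was 61.5%, 62% and 58.7%. A match is a description of the letters and not a site, and the sequences of peaks away from a start were not used here.

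The overlaps were long relative to the peaks. A pair shared a median of 221.5 bases (quartiles 142 and 361.5, lowest 1, highest 1277), which was a median of 66.1% of all bases that its peaks covered. In 570 pairs the overlap took at least 50% of the shorter peak. The most bases were shared by BMP2K, a kinase, and PAQR3, a Golgi membrane protein, with 1277 bases at chr4:78910932-78912208. PRSS23, a serine protease, and FZD4, a Wnt receptor, shared 1176 bases at chr11:86951232-86952407. COG1, a subunit of the conserved oligomeric Golgi complex, and FAM104A shared 1036 bases at chr17:73207472-73208507. BMP2K and PAQR3 had log2 folds of 1.10 and 0.88 per the authors' deposited table, PRSS23 and FZD4 had 1.06 and 1.17, and COG1 and FAM104A had 0.52 and 0.34. Enrichments of these 6 peaks lay between 32.1-fold and 56.4-fold per the authors' deposited table. None of these 6 peaks passed a false discovery rate (FDR) of 0.05.

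At the other end of the rule, 7 pairs shared 1 to 10 bases. ADGRV1 and LYSMD3 shared 1 base and had log2 folds of 1.22 and 0.22 per the authors' deposited table, and PAQR4 and PKMYT1 shared 3 bases and had 1.48 and -0.36. Just outside the rule, the peaks of MT-ND5 and MT-ND6, subunits of respiratory complex I, touched without sharing a base and had log2 folds of 0.54 and 0.44 per the authors' deposited table. RPAIN and C1QBP were 19 bases apart, with 0.25 and 0.66 in the same table.

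Member peaks resembled the whole table in level and size but not in the genes they lay in. In the authors' deposited table the median enrichment, read as IP over input, was 10.1-fold (quartiles 5.35 and 17.1) for member peaks and 10.1-fold (4.96 and 16.3) for all peaks. The median log2 fold was 0.15 for member peaks and 0.14 for all peaks, and the median length was 301 and 300 bases. The median log10 of the peak p per the authors' deposited table was -9.63 for member peaks and -8.2 for all peaks. Peaks split over more than 1 exon block made up 27.7% of member peaks and 30.4% of all peaks. Of member peaks, 79.4% lay on protein-coding genes, 16.0% on long non-coding RNA genes and 13.8% on genes named as antisense or divergent transcripts. The corresponding shares of all peaks were 86.4%, 3.33% and 2.01%. By chromosome the members' share of named peaks ran between 4.02% on chromosome 9 and 9.13% on chromosome 21, among chromosomes with any member.

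Most pairs were of convergent genes, and most were of protein-coding genes, counted separately and not jointly. By RefSeq gene bounds 451 of 640 pairs (70.5%, exact 95% binomial interval 66.8 to 74.0, counting error only) were tail to tail, 85 were head to head, 85 were nested, and 19 had a gene without a match. Both genes were protein-coding in 396 pairs (61.9%), a coding gene met a non-coding one in 179 (28.0%), and a coding gene met a pseudogene in 25. The matched gene bounds did not overlap in 85 of the tail to tail and 38 of the head to head pairs, whose peaks therefore reached past at least 1 annotated gene end. These counts are of pairs that were chosen by overlap of peaks, and 49.2% of the 1027 genes (505) had no listed peak outside an overlap.

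The position of the peaks in their genes is given by arrangement as a description, since the rule places shared bases of convergent genes toward their 3′ ends and those of divergent genes toward their 5′ ends. Medians and shares were taken only over peaks centred inside their gene. These were 739 of 863 peaks in tail to tail, 155 of 165 in nested and 117 of 164 in head to head pairs. In tail to tail pairs their centre lay a median of 1133 bases before the gene's annotated 3′ end, and 343 of 739 (46.4%) lay within 1000 bases of it. In head to head pairs their centre lay a median of 456 bases after the 5′ end, and 86 of 117 (73.5%) lay within 1000 bases of that end. In nested pairs 31.6% of 155 peaks lay within 1000 bases of the 3′ end and 22.6% within 1000 bases of the 5′ end. Of all member peaks inside their gene, 39.7% lay within 1000 bases of the 3′ end and 12.7% within 1000 bases of the 5′ end. Over all 20696 listed peaks inside their gene the shares were 22.2% and 9.60%. In 91 tail to tail pairs the centres of both peaks lay within 1000 bases of the 3′ end of their gene, and in 23 head to head pairs both lay within 1000 bases of the 5′ end. Median enrichment per the authors' deposited table was 10.7-fold in tail to tail, 8.18-fold in head to head and 10.4-fold in nested pairs.

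**Figure D1:**
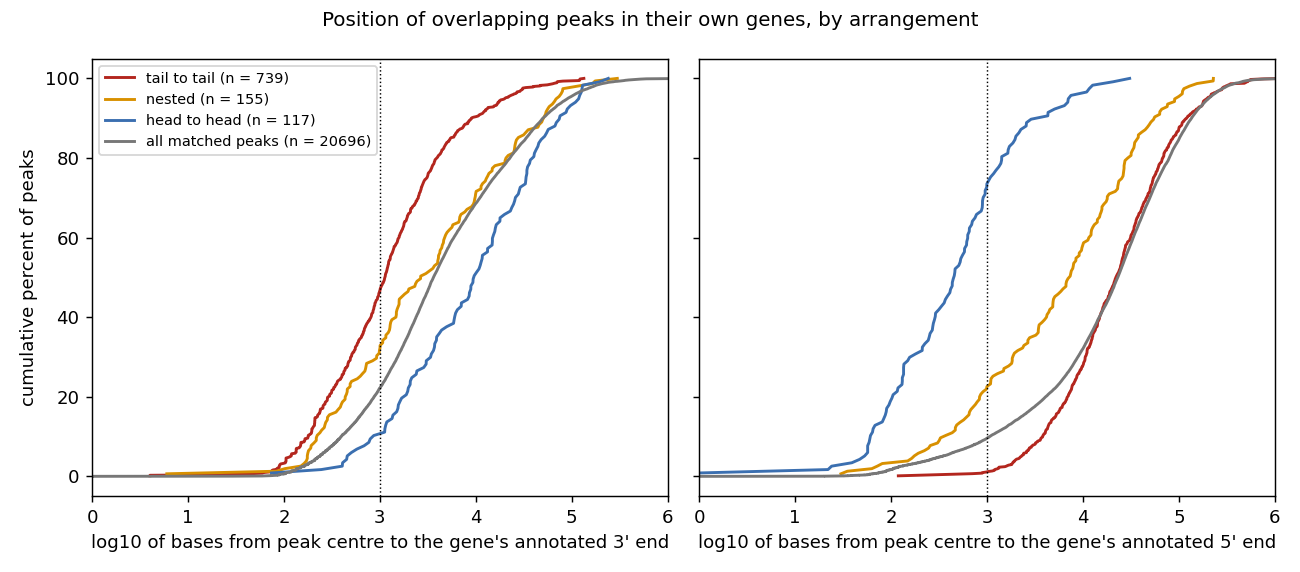
Cumulative percent of member peaks by log10 bases from the peak centre to the annotated 3′ end (left) and 5′ end (right) of their gene. Only peaks centred inside their own gene are drawn. They are 739 peaks of tail to tail, 155 of nested and 117 of head to head pairs, with all 20696 such listed peaks in grey. The dotted line marks 1000 bases, which 46.4% of tail to tail peaks reach at the 3′ end and 73.5% of head to head peaks reach at the 5′ end.

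Differences between the arms were called about as often in overlapping peaks as in the table as a whole. At the FDR of 0.05 per the authors' deposited table, 95 of 1222 member peaks were called (7.77%, exact 95% interval 6.33 to 9.42), against 8.23% of all 22626 peaks. Of these, 65 were positive (5.32%, against 5.74% of all peaks) and 30 were negative (2.45%, against 2.49%). At an FDR of 0.01, 59 were called (4.83%, against 4.99%) per the authors' deposited table. With the p of the authors' deposited table doubled and adjusted again, 74 were called (6.06%, against 6.36%). These shares are near the background and are not a result about overlapping peaks. The called peaks lay in 63 loci, and in 28 of these every member was called. Called members were longer (median 443 bases, against 301 for members not called) and had a median log10 peak p of -57.2, against -8.74, while their median enrichment per the authors' deposited table was 8.64-fold, against 10.4-fold.

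By arrangement, 64 of 863 peaks of tail to tail pairs were called per the authors' deposited table (7.42%, against 8.23% of all peaks), 45 positive and 19 negative. In head to head pairs 17 of 164 were called (10.4%), 7 positive and 10 negative, and in nested pairs 13 of 165 (7.88%), 10 positive and 3 negative. The 10 negative head to head peaks include HCG20 and both listings of nearly the same IER3 peak, at a single locus. Both IER3 listings also count among the 19 negative tail to tail peaks, through their overlap with IER3-AS1. Over all peaks 5.74% were called positive and 2.49% negative. No test of the difference between arrangements was made, since the peaks of a pair are not independent. Of the 1644 genes with a called peak, 93 had a called member peak and 88 (5.35%) were called through member peaks alone. For 60 of these 88 genes the overlapping peak of the other gene was called too, so the table does not say which of the genes carried the difference.

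The peaks of an overlapping pair had similar folds, and more so the more bases they shared. Over 640 pairs the log2 folds per the authors' deposited table differed by a median of 0.23 (quartiles 0.07 and 0.58) and had the same sign in 81.3% of pairs (exact 95% interval 78.0 to 84.2). Pearson's r was 0.78 and Spearman's rho 0.77, as a description across pairs that share bases, libraries and possibly reads. Among 472 pairs of opposite-strand peaks that lay within 1000 bases without sharing a base, the median difference was 0.92, 55.5% had the same sign, and r was 0.08. Enrichments per the authors' deposited table differed between the peaks of an overlapping pair by a median of 0.21 on the log2 scale, against 1.13 in pairs that shared no base.

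**Figure D2:**
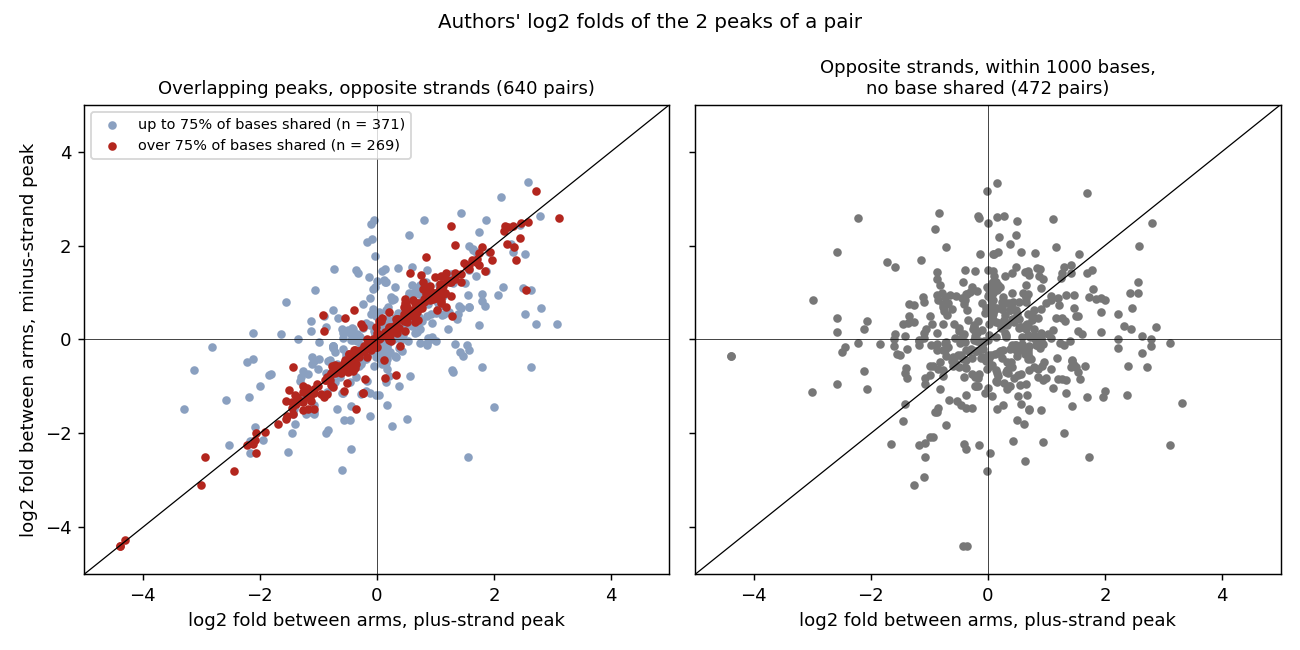
The authors' log2 fold between the arms of the plus-strand peak (x) and the minus-strand peak (y), 1 point per pair, for 640 overlapping pairs (left, coloured by whether over 75% of the bases are shared) and 472 pairs within 1000 bases that share none (right). The 269 pairs sharing over 75% mostly lie close to the diagonal line of equal folds, and the pairs that share none scatter around 0.

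By the share of all bases that the pair had in common, the median difference of log2 folds per the authors' deposited table was 0.61 at up to 25% (115 pairs), 0.41 between 25% and 50% (138 pairs), 0.26 between 50% and 75% (118 pairs), 0.14 between 75% and 90% (143 pairs) and 0.07 above 90% (126 pairs). Pairs with the same sign made up 65.2%, 75.4%, 78.0%, 92.3% and 92.9% of these classes. For comparison, 364 pairs of overlapping peaks that the authors' deposited table assigns to different genes on the same strand had medians of 0.68, 0.45, 0.30, 0.24 and 0 in the same classes. Same-strand pairs with the same sign made up 47.6%, 85.7%, 88.9%, 92.5% and 99.5% of these classes. The opposite-strand medians were thus the lower ones in each class up to 90% and the higher one above 90%, while the same-strand pairs had the same sign more often in each class above 25%, and no test of these differences was made. Exactly equal folds were listed for 28 opposite-strand pairs and exactly equal enrichments for 61. The single opposite-strand pair with identical blocks, INO80E (a chromatin remodelling subunit) and HIRIP3 (a histone chaperone partner) at chr16:29995865-29996014, had a log2 fold of -1 and an enrichment of 8.44-fold on both strands per the authors' deposited table. All 10 same-strand pairs with identical blocks also had equal folds.

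**Figure D3:**
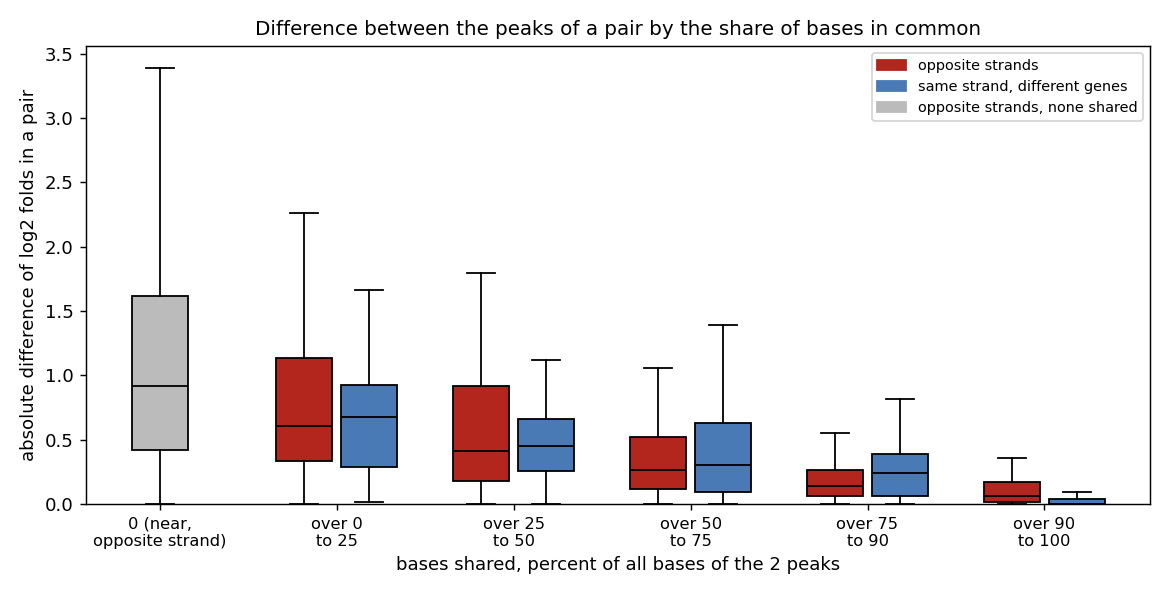
Absolute difference of the authors' log2 folds between the peaks of a pair (y) by the percent of all bases of the pair that are shared (x), for opposite-strand pairs (red), same-strand pairs of different genes (blue) and opposite-strand pairs near each other that share none (grey). Boxes give the median and quartiles and whiskers reach 1.5 box lengths, and the red medians lie between 0.61 at the lowest and 0.07 at the highest overlap.

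The overlapping peak of the neighbour was closer in fold than other peaks of the gene itself. In 150 pairs both genes had another listed peak, and both sides of each pair were counted, which gave 300 sides that are not independent. Over these sides the median difference of log2 folds per the authors' deposited table was 0.20 to the overlapping peak. It was 0.77 to other peaks of the same gene and 0.90 to other peaks of the partner gene. Pairs in which both peaks consisted of 1 block (325) differed by a median of 0.15 and shared a median of 85.3% of their bases. Where 1 peak was split over several blocks (255 pairs) the medians were 0.34 and 41.5%, and where both were (60 pairs) 0.50 and 30.5%. A few strongly overlapping pairs still differed. COG2, a Golgi tethering subunit, and AGT, angiotensinogen, shared 93.8% of their bases and had the same enrichment of 13.2-fold and the same log10 peak p of -6.81 per the authors' deposited table, with log2 folds of 2.55 (FDR = 0.119) and 1.05 (FDR = 0.425). The most different pair of all was VCAN, a matrix proteoglycan, and VCAN-AS1, which shared 32.9% of their bases and had log2 folds of 1.55 (FDR = 0.407) and -2.50 (FDR = 0.61) per the authors' deposited table.

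When both peaks of a pair were called they always had the same sign. In the authors' deposited table both peaks were called in 32 pairs, 22 positive and 10 negative, and 0 pairs had both called with opposite signs. Exactly 1 was called in 40 pairs and neither in 568. Above 75% shared bases 17 pairs had both called and 2 had 1 called, while at up to 75% the counts were 15 and 38. In the pairs that shared no base, 3 had both called and 72 had 1 called. A count of genes with a call takes each of these overlaps under both gene names.

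**Figure D4:**
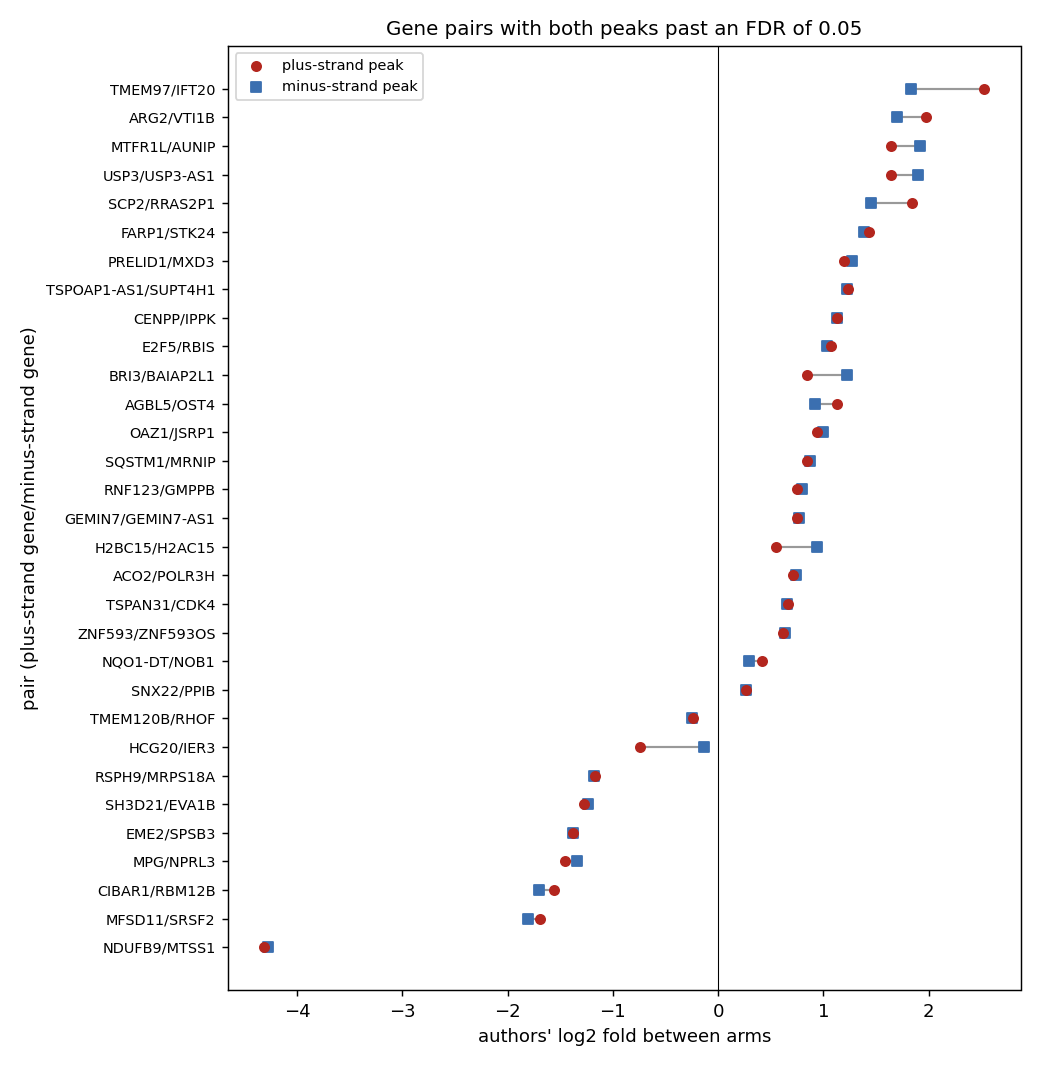
The authors' log2 fold between the arms (x) of the plus-strand peak (red circle) and the minus-strand peak (blue square) for the 31 gene combinations in which both peaks passed an FDR of 0.05, ordered by the mean fold. The marks of each combination lie on the same side of 0, between TMEM97/IFT20 at 2.53 and 1.83 and NDUFB9/MTSS1 at -4.31 and -4.28.

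The 5 gene combinations with the largest positive mean fold among those with both peaks called had log2 folds between 1.45 and 2.53 per the authors' deposited table. TMEM97, an endoplasmic reticulum protein that binds sterols, and IFT20, a carrier of intraflagellar transport, shared 240 bases at chr17:28328446-28328685, with log2 folds of 2.53 (FDR = 0.0407) and 1.83 (FDR = 0.0437) per the authors' deposited table. Neither was called with p doubled (FDR = 0.0813 and 0.0869). ARG2, the mitochondrial arginase, and VTI1B, a SNARE protein of vesicle fusion, shared 208 bases at chr14:67650789-67650996, with 1.97 (FDR = 0.00269) and 1.70 (FDR = 0.00741) per the authors' deposited table, at enrichments of only 2.50-fold and 2.42-fold. MTFR1L, related to a mitochondrial fission regulator, and AUNIP, which binds Aurora kinase A, shared only 28.1% of their bases and had 1.64 (FDR = 0.000398) and 1.92 (FDR = 0.0138), at enrichments of 25.6-fold and 14.5-fold, per the authors' deposited table. USP3, a histone H2A deubiquitinase, and USP3-AS1 shared 364 bases and had 1.64 (FDR = 5.13e-05) and 1.90 (FDR = 0.00603) per the authors' deposited table. SCP2, the sterol carrier protein, and the pseudogene RRAS2P1 that lies inside it shared 84.7% of their bases and had 1.84 (FDR = 0.000126) and 1.45 (FDR = 0.00138), at enrichments of 4.53-fold and 5.01-fold, per the authors' deposited table. In each of these combinations the folds lay on the same side of 0, and the enrichments ran between 2.42-fold for VTI1B and 50.1-fold for USP3-AS1.

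The largest negative folds with both peaks called included the most negative called member. NDUFB9, a subunit of respiratory complex I, and MTSS1, an actin-binding membrane protein, shared 270 bases on chromosome 8 and had log2 folds of -4.31 (FDR = 0.0178) and -4.28 (FDR = 0.0191) per the authors' deposited table. The centre of the NDUFB9 peak lay 3180 bases past the annotated 3′ end of NDUFB9 and inside MTSS1. MFSD11, a transporter-like protein, and SRSF2, a splicing factor of the SR family, are head to head and shared 151 bases at chr17:76736894-76737044. Their peaks lay 335 and 435 bases after the starts of the genes, with log2 folds of -1.69 (FDR = 0.0126) and -1.81 (FDR = 0.00234) and weak enrichments of 2.22-fold and 2.26-fold per the authors' deposited table. CIBAR1, a BAR domain protein of cilia, and RBM12B, an RNA-binding protein, had -1.56 (FDR = 0.0339) and -1.70 (FDR = 0.0178) per the authors' deposited table, and CIBAR1 was not called with p doubled (FDR = 0.0686). MPG, a DNA glycosylase that removes alkylated purines, and NPRL3, a subunit of the GATOR1 complex, shared 180 bases at chr16:85552-85731 and had -1.45 (FDR = 0.00457) and -1.34 (FDR = 0.0055) per the authors' deposited table. EME2, a partner of the MUS81 nuclease, and SPSB3 shared 99.0% of their bases and had -1.38 on both strands (FDR = 9.12e-05 and 8.91e-05), at enrichments of 4.34-fold and 4.46-fold, per the authors' deposited table.

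Pairs with 1 called peak shared fewer bases. In the authors' deposited table the median share of bases was 31.5% over the 40 pairs with 1 called peak and 78.1% over the 32 pairs with both called. The fold of the uncalled peak had the same sign in 31 of the 40 pairs and the opposite sign in 9, and its FDR had a median of 0.37, was at most 0.1 in 5 pairs and was over 0.5 in 18. The called peak was the longer one in 26 pairs and had the smaller peak p in 27. SNHG22, a non-coding host gene of small nucleolar RNAs, had a log2 fold of -2.81 (FDR = 0.0251) per the authors' deposited table, against -0.16 (FDR = 0.638) for MYO5B, a motor of apical recycling, with which it shared 188 bases.

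A further 3 pairs of this kind with large differences are also tail to tail. SUV39H2, a histone H3 lysine methyltransferase, had a log2 fold of 2.49 (FDR = 0.00661) per the authors' deposited table, against 1.10 (FDR = 0.662) for DCLRE1C, the Artemis nuclease. SNHG7, a non-coding RNA, had -0.78 (FDR = 0.00891), against 0.57 (FDR = 0.60) for DIPK1B, per the authors' deposited table. URB1, a protein of ribosome biogenesis, had -1.72 (FDR = 0.000741), against -0.46 (FDR = 0.659) for MRAP, an accessory protein of melanocortin receptors, per the authors' deposited table. The MRAP peak lay wholly inside the URB1 peak, so its 209 bases are a part of the same stretch.

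The overlaps with the smallest peak p of each arrangement had log2 folds between -0.74 and 0.77 per the authors' deposited table. SNX22 and PPIB, the cyclophilin B of the endoplasmic reticulum, are tail to tail, shared 346 bases and had a log2 fold of 0.26 on both strands (FDR = 5.62e-05 and 1.45e-05) per the authors' deposited table. PCBP1, a poly(C)-binding protein, and PCBP1-AS1 are head to head and shared 374 bases, with -0.41 (FDR = 0.0288) and -0.00449 (FDR = 0.665) per the authors' deposited table, and PCBP1 was not called with p doubled (FDR = 0.0579). ZNF593 and ZNF593OS shared 352 bases and had 0.62 (FDR = 0.00234) and 0.64 (FDR = 0.00178) per the authors' deposited table. GEMIN7, a subunit of the SMN complex, and GEMIN7-AS1, whose start sequence is printed above, shared 820 bases and had 0.75 (FDR = 0.0263) and 0.77 (FDR = 0.0182) per the authors' deposited table, at enrichments of 24.3-fold and 24.2-fold. GEMIN7 was not called with p doubled (FDR = 0.0515). ADIRF and ADIRF-AS1 shared 169 bases and had 0.07 (FDR = 0.60) and 0.14 (FDR = 0.511) per the authors' deposited table.

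At the IER3 locus peaks assigned to 3 genes met. IER3, an immediate early response gene, is covered by nearly the same peak listed with lengths of 900 and 913 bases, both with a log2 fold of -0.14 and FDRs of 3.80e-05 and 2.63e-05 per the authors' deposited table. The peak assigned to HCG20, a long non-coding RNA that runs the other way, shared 85 of these bases (31.7% of the HCG20 peak). It had -0.74 (FDR = 1.58e-15) per the authors' deposited table, the lowest FDR among the named pairs. The annotated bounds of HCG20 and IER3 do not overlap (-22277 bases, a gap). The 85 shared bases lie inside annotated IER3 and outside annotated HCG20. IER3-AS1 shared 352 bases with IER3 and had 0.13 (FDR = 0.233) per the authors' deposited table. The HCG20 and IER3-AS1 peaks thus differed in sign although both overlap the same IER3 peak, on separate bases of it.

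Genes named as antisense or divergent transcripts supplied 169 member peaks on 140 genes. Of the 454 peaks that the authors' deposited table assigns to such genes, 37.2% overlapped an opposite-strand peak, against 5.77% of all named peaks and 4.96% of peaks of protein-coding genes. For 112 of the 140 antisense-named genes (80.0%) every listed peak was an overlapping one. The same held for 119 of 152 long non-coding RNA genes (78.3%), 30 of 37 pseudogenes (81.1%) and 344 of 825 protein-coding genes (41.7%) with a member peak. In 131 of 176 pairs the gene was named after its partner, and in 45 after another gene. The median enrichment was 10.6-fold on the antisense-named gene and 11.3-fold on the partner per the authors' deposited table. The partner's peak was longer in 105 pairs and the antisense-named peak in 59, with median lengths of 270 bases on the antisense-named gene and 330 bases on the partner. Folds of such pairs differed by a median of 0.26 on the log2 scale, against 0.22 in the 464 pairs without an antisense-named gene.

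Of the 169 antisense-named peaks, 8 were called per the authors' deposited table (4.73%, against 8.23% of all peaks), each with a positive fold, on ZNF593OS, RUSC1-AS1, ADIRF-AS1, USP3-AS1, NQO1-DT, TSPOAP1-AS1, GEMIN7-AS1 and H1-10-AS1. With p doubled the peaks of ADIRF-AS1, NQO1-DT and H1-10-AS1 were not called (FDR = 0.0912, 0.0719 and 0.0771). Positive folds made up 69.7% of all called peaks per the authors' deposited table, and nothing particular to antisense-named genes is read from 8 peaks. TSPOAP1-AS1 and SUPT4H1, a subunit of the elongation factor DSIF, had log2 folds of 1.23 (FDR = 0.00562) and 1.22 (FDR = 0.00575) per the authors' deposited table, with enrichments of 3.45-fold and 7.88-fold. RUSC1-AS1 had 1.76 (FDR = 0.0112) per the authors' deposited table, against 0.83 (FDR = 0.262) for FDPS, the farnesyl diphosphate synthase of the mevalonate pathway, with which it shared 258 bases. Both peaks were called in 5 pairs with an antisense-named gene, and 1 peak in 11.

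A list of 32 known sense and antisense or bidirectional gene pairs was drawn from textbook knowledge, and not every gene on it is antisense-named. Of these pairs 7 were found among the overlaps, with 1 called peak per the authors' deposited table. BACE1-AS and BACE1, the β-secretase, shared 660 bases at chr11:117289067-117289726 (95.7% of their bases) and had log2 folds of 0.30 and 0.28 per the authors' deposited table. The centre of the peak assigned to BACE1-AS lay 1949 bases before the annotated start of BACE1-AS. THRA, a thyroid hormone receptor, and NR1D1, the circadian repressor REV-ERBα, shared 111 bases and had 0.35 and 0.44, at enrichments of 1.64-fold and 1.6-fold, per the authors' deposited table. FGF2 and NUDT6, long known as its antisense gene, shared 447 bases and had 1.26 (FDR = 0.522) and 1.23 (FDR = 0.531) per the authors' deposited table. POLR1G, a subunit of RNA polymerase I, and ERCC1, a nucleotide excision repair protein, overlapped in 2 places, and in the longer, with 921 shared bases, POLR1G had 0.69 (FDR = 0.038) and ERCC1 0.47 (FDR = 0.0933) per the authors' deposited table. With p doubled POLR1G was not called (FDR = 0.0758). STEAP3, a metalloreductase of iron uptake, and STEAP3-AS1 had -0.35 and -1.49, and TOP1, topoisomerase I, and PLCG1-AS1 had 0.33 and -0.38 per the authors' deposited table, with no call.

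Among 30 listed gene symbols linked to writing, erasing or reading m6A, 2 had a peak in an overlap, and neither was called. The list holds CBLL1 also under its synonym HAKAI. The reader IGF2BP3 shared 384 bases with MALSU1, a mitochondrial ribosome assembly factor, with log2 folds of -0.57 (FDR = 0.513) for IGF2BP3 and -0.65 (FDR = 0.476) for MALSU1 per the authors' deposited table. HNRNPA2B1, an RNA-binding protein linked to m6A, shared 736 bases with the transcription factor NFE2L3, with -0.33 (FDR = 0.387) for HNRNPA2B1 and -0.45 (FDR = 0.0759) for NFE2L3 per the authors' deposited table. The centre of the HNRNPA2B1 peak lay 4918 bases past the annotated 3′ end of HNRNPA2B1, and its enrichment was 10.8-fold, against 22.9-fold for the NFE2L3 peak, per the authors' deposited table. None of ALKBH5, RAB5A, FOXO3, AXIN2 and MYC had a peak in an overlap.

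Further pairs with both peaks called, picked after their values were seen, follow. CDK4, a G1 cyclin-dependent kinase, and TSPAN31, a tetraspanin, are tail to tail, shared 368 bases at chr12:57748250-57748617 and had log2 folds of 0.65 for CDK4 (FDR = 2.24e-06) and 0.66 for TSPAN31 (FDR = 1.95e-06) per the authors' deposited table. SQSTM1, the autophagy receptor p62, and MRNIP shared 247 bases and had 0.84 (FDR = 3.89e-10) and 0.87 (FDR = 2.09e-10) at the same enrichment of 2.26-fold per the authors' deposited table. OAZ1, the antizyme of ornithine decarboxylase, had 0.94 (FDR = 2.51e-09) and the peak assigned to JSRP1 had 1 (FDR = 2.75e-09) per the authors' deposited table, although the centre of that peak lay 13132 bases before the annotated start of JSRP1. The replication-dependent histone genes H2BC15 and H2AC15 had 0.55 (FDR = 0.000102) and 0.94 (FDR = 0.0331) per the authors' deposited table, at enrichments of 24.8-fold and 7.07-fold. H2AC15 was not called with p doubled (FDR = 0.0664). RSPH9, a radial spoke protein of cilia, and MRPS18A, a mitochondrial ribosomal protein, shared 97.5% of their bases and had -1.17 and -1.18 (FDR = 3.98e-06 and 2.95e-06) per the authors' deposited table.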

How the data were processed

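The labels describe HCT116 cells with a hairpin against ALKBH5 or a non-targeting hairpin, 2 IP and 2 input libraries per arm, grouped by the sample titles. They name more than 1 antibody and fragment length, and do not say which applied. GRCh38, BWA 0.7.12 and HOMER 4.9.1 stand in the submitters' processing notes with no role. For the peak caller, a name was not given in the sources used here.

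Per the file headers, the authors' table gives for each peak its blocks, strand and gene, a p-value, its logarithm and the log10 p and FDR of the comparison as scores, a fold enrichment as a linear ratio, and a log2 fold between the arms. The sidedness of the p of the comparison and any use of replicate spread in it were not given in the sources used here. Depth is unknown, and no replicate error could be given.

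Starts were changed to 1-based. Pairs were found from exon blocks, tested on simulated data, and joined into loci. Genes were matched by symbol to the RefSeq table of GRCh38.p14, within 100000 bases of the peak. Calls used the deposited FDR at 0.05. Alternatives were 50 shared bases, 50% of the shorter peak, FDR 0.01, p doubled and adjusted again (Benjamini-Hochberg), log10 peak p at most -5, 1 peak or pair per locus, recentred folds and a differing symbol. Unnamed partners, leaving out a second sorted part of the table (565 peaks) and 2 changes of gene matching were added after seeing the data. Exact binomial intervals cover counting error only and treat peaks as independent, which overlapping peaks are not.

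The members and lists were chosen with earlier results of these data known. Named pairs were the 5 largest positive and 5 largest negative by mean fold with both peaks called, the 5 most different with 1 called, the 3 with the smallest peak p per arrangement, the 3 with most shared bases, 4 called antisense-named peaks, and pairs of the fixed lists. A few pairs that meet these criteria are not reported here. COG2, VCAN, INO80E, TECR, the promoter windows, the pairs just inside and outside the rule, CDK4, SQSTM1, OAZ1, H2AC15, RSPH9 and the pairs in the closing observations were picked with their values in view. Python 3.11.15, pandas 2.3.3, numpy 2.4.6, scipy 1.17.1 and matplotlib 3.10.9 were used.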

Additional observations from a re-analysis of the deposited data

How the results depend on the processing

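Called members numbered 95 of 1222 (65 positive, 30 negative), or 7.77%, against 8.23% of all peaks. At an FDR of 0.01 they numbered 59 of 1222 (42 and 17), or 4.83%, against 4.99% of all peaks. With each locus counted once, 63 of 584 loci held a called member (43 positive). A locus holds several peaks, so this count is not comparable with the share of all peaks. With unnamed partners allowed, 149 of 1666 peaks were called (101 and 48). The other alternatives gave between 74 and 94 called members. The 74 were reached with p doubled (6.06%, against 6.36% of all peaks). The 94 were reached both with 50 shared bases (1188 members kept) and with log10 peak p at most -5 (889 members kept). The rule gave 1104 members with 50% of the shorter peak, 1168 without the second sorted part, 1188 with 50 shared bases and 1222 with a differing symbol. The share of pairs with the same sign stayed between 81.6% and 83.8%, against 81.3%, and the tail to tail share between 71.0% and 73.5%, against 70.5%. Of 74 named peaks 39 were called. At an FDR of 0.01 14 of these were not called, and with p doubled the peaks of TMEM97, IFT20, CIBAR1, POLR1G, PCBP1 and GEMIN7 were not (FDR between 0.0515 and 0.0869), while none was added. No paired analysis was possible because values per library were not analysed here, and for the same reason leaving out each replicate was not run. Depth is unknown and limits every value.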

Other observations

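Some gene combinations overlapped in several places. EXOC7, a subunit of the exocyst, and ZACN, a ligand-gated channel, are tail to tail on chromosome 17 and formed 6 pairs of 8 peaks, with log2 folds between -1.17 and 0.08 in the authors' deposited table and 1 called peak (FDR = 0.0407). That peak, assigned to ZACN, was not called with p doubled (FDR = 0.0813). ENTPD1, the ectonucleotidase CD39, and ENTPD1-AS1 formed 4 pairs of 8 peaks, with log2 folds between 0 and 1.09 and a median difference within pairs of 0.01 in the authors' deposited table. KCTD21 and KCTD21-AS1 formed 4 pairs of 6 peaks with folds between -4.39 and -0.35 and a largest difference within a pair of 0.07, and none was called (smallest FDR = 0.0676) in the authors' deposited table. Other repeated combinations differed more within a pair. The largest difference within a pair was 3.22 for SBF2 and SBF2-AS1, 2.59 for HSD17B1 and HSD17B1-AS1, 1.99 for TRIM52 and CTC-338M12.4 and 1.84 for PAQR4 and PKMYT1 in the authors' deposited table, with no call.

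FTX and JPX, non-coding genes of the X inactivation centre, formed 4 pairs of 8 peaks with log2 folds between -0.85 and 0.85, a median difference of 0.09 and no call (smallest FDR = 0.69) in the authors' deposited table. SCAND2P, a pseudogene, and WDR73 formed 4 pairs with a largest difference of 0.16 and no call in the authors' deposited table. ABI2, an actin regulator, and RAPH1, lamellipodin, formed 3 pairs with folds between -3.09 and 0.65 and a largest difference of 0.14 in the authors' deposited table. PINK1-AS and PINK1, the mitochondrial kinase, overlapped at a place with log2 folds of -2.51 and -2.93 (FDR = 0.313 and 0.168) and at another with 0.10 and 0.09 (FDR = 0.514 and 0.541) in the authors' deposited table.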
